A study of Mus musculus with 4 samples.

Results

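Brown fat burns fuel to make heat, and 8 genes of this thermogenic program were followed in the aorta of 4 groups of mice: Ucp1, Dio2, Cidea, Ppargc1a, Elovl3, Adrb3, Prdm16 and Fabp3. Every probe set whose platform annotation names exactly 1 of these genes was taken. That gave 12 probe sets for 6 of the 8 genes, out of 22626 probe sets and 12393 named genes on the array. Ppargc1a had 5 probe sets, Dio2 had 3, and Ucp1, Cidea, Elovl3 and Fabp3 had 1 each. No probe set in the annotation used here names Adrb3 or Prdm16 alone, so these were not analysed here.

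The groups were C3H/HeJ apoE-/- mice on Western diet, C3H/HeJ apoE-/- mice on chow, C57BL/6 apoE-/- mice on Western diet and C57BL/6 apoE-/- mice on chow (C3H stands for C3H/HeJ below). All were females of 6 weeks that lack apolipoprotein E, which clears lipoprotein remnants from blood, and no mouse with the gene intact was analysed here. They were weaned at 3 weeks, and the Western diet was given for 2 weeks from the age of 4 weeks. Each group had 1 array, the labels do not say how many animals it holds, and no difference below therefore has a replicate check. With 4 arrays in all, precision is limited throughout, and a strain or diet difference cannot be told apart from a difference between single arrays.

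In a brown adipocyte, noradrenaline from sympathetic nerves acts on a beta-adrenergic receptor encoded by Adrb3, and the cAMP made in response releases fatty acids from lipid droplets and switches on thermogenic genes. Fatty acids then open the uncoupling protein encoded by Ucp1 in the inner mitochondrial membrane, so that the proton gradient is spent as heat. Fat around the mouse thoracic aorta is known to resemble brown fat, and it can stay on a dissected vessel. In such bulk RNA, a smaller share of brown adipocytes and less RNA of a gene per cell cannot be told apart.

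Ppargc1a, Ucp1 and Dio2 are known targets of cAMP signalling in brown fat, so the RefSeq promoter windows of the measured members are shown first, for the 4 of the 6 genes found in the table used (GRCm38.p6, 250 bases before to 50 after the annotated start, 5′ to 3′ on the gene's strand). Capitals mark TGACG, the half-site of the cAMP response element, on either strand (CGTCA on the other strand). The windows lie at chr12:90738989-90739288 on the minus strand for Dio2, chr5:51567676-51567975 on the minus strand for Ppargc1a, chr8:83290098-83290397 on the plus strand for Ucp1 and chr4:130308488-130308787 on the plus strand for Fabp3.
Dio2: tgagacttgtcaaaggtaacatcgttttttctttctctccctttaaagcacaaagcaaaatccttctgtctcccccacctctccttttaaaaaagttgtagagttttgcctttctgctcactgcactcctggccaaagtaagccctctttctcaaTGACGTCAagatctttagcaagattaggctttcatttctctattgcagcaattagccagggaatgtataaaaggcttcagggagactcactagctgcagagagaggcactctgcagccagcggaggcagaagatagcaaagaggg
Ppargc1a: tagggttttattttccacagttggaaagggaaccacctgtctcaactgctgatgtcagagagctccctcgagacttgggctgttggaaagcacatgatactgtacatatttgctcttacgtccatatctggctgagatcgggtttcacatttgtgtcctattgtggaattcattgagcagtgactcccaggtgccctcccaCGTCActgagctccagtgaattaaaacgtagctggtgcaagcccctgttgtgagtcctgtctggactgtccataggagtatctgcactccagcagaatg
Ucp1: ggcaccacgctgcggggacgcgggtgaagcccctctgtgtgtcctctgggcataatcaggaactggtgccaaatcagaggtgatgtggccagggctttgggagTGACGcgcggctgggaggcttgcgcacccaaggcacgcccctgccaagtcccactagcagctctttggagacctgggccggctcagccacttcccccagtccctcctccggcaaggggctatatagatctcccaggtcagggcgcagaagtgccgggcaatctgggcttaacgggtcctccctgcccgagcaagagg
Fabp3: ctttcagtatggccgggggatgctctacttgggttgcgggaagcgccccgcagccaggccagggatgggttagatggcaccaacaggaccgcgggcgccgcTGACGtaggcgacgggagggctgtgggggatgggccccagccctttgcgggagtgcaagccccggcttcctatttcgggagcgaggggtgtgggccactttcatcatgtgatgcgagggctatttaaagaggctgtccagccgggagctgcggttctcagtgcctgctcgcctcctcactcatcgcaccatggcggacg

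All 4 windows held TGACG on at least 1 strand, as did 20.8% of the 32851 windows of the same length in the table. The window of Prdm16, which has no probe set here, did not hold these letters, so 4 of the 5 members' windows found did. The full palindrome TGACGTCA, which contains the half-site on both strands, was found in the Dio2 window alone among the 4, with its first base at position -95 from the start site, and in 1.79% of all windows. The half-site began at -49 in Ppargc1a, at -147 in Ucp1 and at -149 in Fabp3. AGGTCA, the half-site of nuclear receptors such as the thyroid hormone receptor and the PPARs, was found in the Ucp1 window at -14 and in 16.3% of all windows. TATAAA was found in the Dio2 window at -30 and in 13.6% of all windows. These matches describe the letters of the window and not bound sites.

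**Figure D1:**
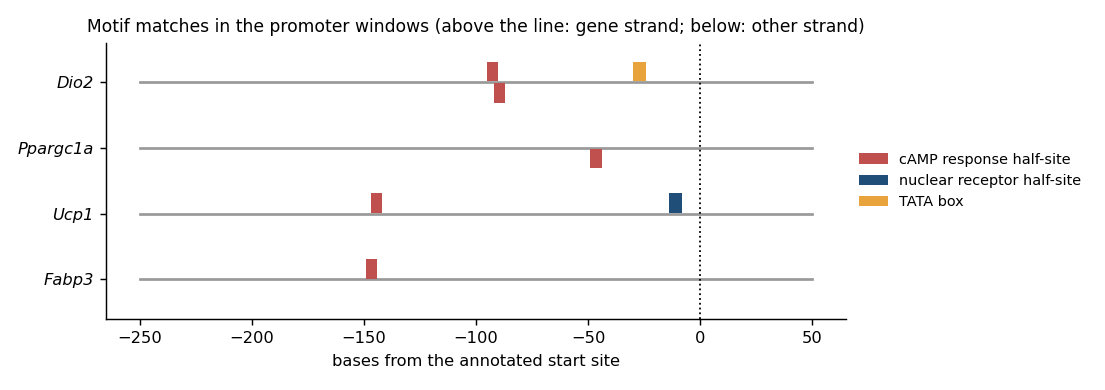
Motif matches in the promoter windows of the 4 measured genes found in the table, by distance in bases from the annotated start site (dotted line), with matches on the gene's strand above the line and on the other strand below it. The cAMP half-site occurs in each window, on both strands of the palindrome at -95 in Dio2.

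Signals below are quantile normalized intensities on a linear scale. A signal at or under 83.6, the 40th percentile of all values, is treated as a bound, and a fold against it is given as "at least". Smooth muscle markers, which define the aortic wall, were all above this floor on all arrays (7 of 7). The C3H chow array stood apart from the others. Its 9 hybridization controls were 1.715 times the mean of the other arrays (median), the ratio of actin signal at the 3' end to that at the 5' end was 2.28 (1.63 to 1.83 on the rest), and it correlated with the other arrays at 0.705 to 0.726 (log2 signals across probe sets), where each other array reached 0.760 to 0.761 with its closest partner. Its Gapdh ratio of the same kind, 1.19, lay within the 1.03 to 1.28 of the rest. It is also the array on which every member was highest, so values that use it are set beside those that do not.

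On C3H chow, each of the 12 probe sets of the 6 measured genes had its highest signal of the 4 arrays. Among all probe sets with a signal above the floor on any array, 29.7% were highest there. Among all genes, with 1 probe set per gene, 30.5% were highest on C3H chow, 22.8% on C3H Western, 21.3% on C57BL/6 Western and 25.5% on C57BL/6 chow. Dio2, Ppargc1a, Elovl3 and Ucp1 stood at least 2-fold above each of the other arrays, 4 of 6 genes, where 2.58% of all genes did, and so did 8 of the 12 probe sets, where 2.66% of all probe sets did. Cidea and Fabp3 did not, and their highest signals were 1.17 and 1.14 times the next array's.

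The effector of heat production, Ucp1, had a signal of 10130 on C3H Western, 25040 on C3H chow, 9098 on C57BL/6 Western and 10640 on C57BL/6 chow. The C3H chow array was high and the other 3 lay within 1.17-fold of each other. Dio2, which makes active thyroid hormone inside the brown adipocyte, had signals of 457.1 on C3H Western, 3451.5 on C3H chow, 360.7 on C57BL/6 Western and 305.8 on C57BL/6 chow. Its contrast between C3H chow and the next array, 7.55-fold, was the widest among the representative probe sets of the 6 genes, a representative being the probe set with the highest mean signal.

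The other probe sets of Dio2 were also highest on C3H chow. One had 261.5 on C3H Western, 2128 on C3H chow, 266.7 on C57BL/6 Western and 60.5 on C57BL/6 chow, the last under the floor. The other was above the floor on C3H chow alone, with 433.0 there, 36.3 on C3H Western, 8.19 on C57BL/6 Western and 9.73 on C57BL/6 chow. The representative set and this last one were designed from 1 source sequence, by the accession in the annotation, so they are not independent measures.

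Ppargc1a encodes PGC-1 alpha, the coactivator that drives mitochondrial biogenesis and Ucp1 transcription. Its representative set had 120.8 on C3H Western, 831.0 on C3H chow, 211.0 on C57BL/6 Western and 210.7 on C57BL/6 chow. C3H chow was thus high, C3H Western low, and the C57BL/6 arrays alike. Among its other 4 sets the signal on C3H chow ranged from 226.8 to 475.1, and that on C57BL/6 chow from 127.6 to 170.1. On C3H Western these 4 sets had 3.86, 4.11, 10.7 and 125.6, so 3 of them lay under the floor on this array.

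Elovl3, an elongase of very long chain fatty acids that is induced in brown fat by cold, had 342.0 on C3H Western, 1490 on C3H chow, 455.5 on C57BL/6 Western and 317.9 on C57BL/6 chow. Cidea, a protein of the lipid droplet surface and a marker of brown adipocytes, had 17796 on C3H Western, 20856 on C3H chow, 13143 on C57BL/6 Western and 10386 on C57BL/6 chow. Both C3H arrays were above both C57BL/6 arrays for Cidea, the only measured gene of the 6 besides the representative set of Dio2 with that order. Fabp3, a fatty acid carrier of heart, skeletal muscle and brown fat, had 3011 on C3H Western, 4187 on C3H chow, 3659.5 on C57BL/6 Western and 1882 on C57BL/6 chow, so that C57BL/6 chow was the low array.

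**Figure D2:**
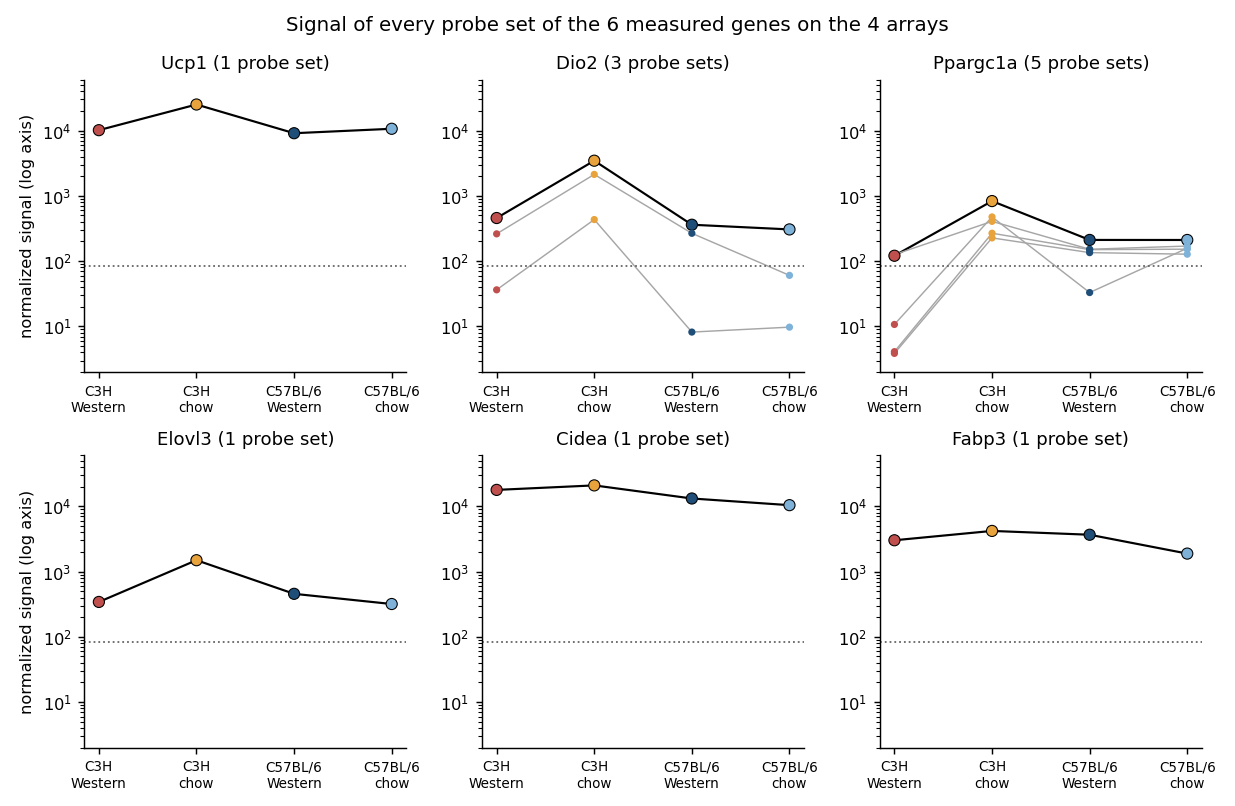
Normalized signal (log axis) of every probe set of the 6 measured genes on the 4 arrays, 1 array per group. Black lines and large points mark the representative probe set, grey lines the others, and the dotted line the floor of 83.6. Each line peaks on C3H chow, by 7.55-fold over the next array for Dio2 and by 1.14-fold for Fabp3.

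The comparison of C3H with C57BL/6 on chow asks how the aortas of the strains differ without the Western diet. All 6 measured genes were at least 2-fold higher in C3H, and 0 were lower. Of 9702 genes, 10.1% were higher by that much and 10.5% were lower. The median log2 difference of the 6 was 1.61, against 0.02 over all genes. Dio2 was 11.3-fold higher (log2 3.50), Elovl3 4.69-fold (2.23) and Ppargc1a 3.94-fold (1.98). Ucp1 was 2.35-fold, Fabp3 2.22-fold and Cidea 2.01-fold higher, the last at the threshold itself. By probe set, 10 of 12 were at least 2-fold higher (10.3% of all probe sets were, and 10.8% were lower), and the 2 others, both of Ppargc1a and from 1 source sequence, were 1.76-fold and 1.78-fold higher.

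General adipocyte genes were higher in C3H chow too, by less. Of 11 listed, 9 were on the array, which for this and later lists means that a probe set names the gene alone. All 9 lay above 0, 3 of them at least 2-fold, with a median log2 difference of 0.78. The 3 were Lpl, the lipase that takes up lipoprotein fatty acids (2.35-fold), Dgat2, the last enzyme of triglyceride synthesis (2.35-fold), and Pnpla2, the first lipase of lipolysis (2.27-fold). The second Dgat2 set had 4850 on C3H chow and 4046 on C57BL/6 chow, so its sets disagree in size. The second sets of Lpl (14752 against 3487) and Pnpla2 (174.7 against 47.9, the latter under the floor) were higher on C3H chow too. The summed signal of the 9 was 89336 on C3H Western, 130968 on C3H chow, 91012 on C57BL/6 Western and 69585 on C57BL/6 chow, with none under the floor on any array. Of 6 white adipocyte markers, Lep and Agt were under the floor on all arrays. Retn, the adipokine resistin, was above it on all, with 155.0 on C3H Western, 461.5 on C3H chow, 451.6 on C57BL/6 Western and 266.0 on C57BL/6 chow. Retn was 1.73-fold higher in C3H on chow and 2.98-fold lower with Western diet in C3H. On Western diet it was 2.91-fold lower in C3H than in C57BL/6. The list did not follow Retn throughout. On chow, 2 of 3 measured markers were higher in C3H (median log2 0.48), and Hoxc9 was at least 1.41-fold lower. With Western diet in C3H, 2 of 3 were higher (median 0.02), Nnat by at least 1.695-fold and Hoxc8 by log2 0.02. Between the strains on Western diet, 1 of 3 was higher in C3H and 2 were lower (median -0.69). The summed signals of the 6 white adipocyte markers were 492.9, 650.2, 775.1 and 515.1 in the same order of arrays.

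Smooth muscle and fibroblast markers differed in the opposite direction on the chow arrays. The 7 smooth muscle markers summed to 43369 on C3H chow and 98859 on C57BL/6 chow (70567 on C3H Western and 74480 on C57BL/6 Western), and 4 of 7 were at least 2-fold lower in C3H chow. All 6 fibroblast markers were at least 2-fold lower there, with sums of 15489 on C3H chow and 59859 on C57BL/6 chow (29786 on C3H Western and 22286 on C57BL/6 Western). Heart muscle also makes Fabp3 and Ppargc1a RNA. Its 12 markers summed to 1116 on C3H chow and 21768 on C57BL/6 chow, and 8 of them were under the floor on C3H chow (and on C3H Western, where the sum was 948.3). The 10 skeletal muscle markers summed to 987.6 on C3H chow and 2028 on C57BL/6 chow. Of 5 endothelial markers, 3 were higher in C3H chow, with a median of 0.26, and Kdr, a receptor for vascular endothelial growth factor, was 2.04-fold higher. Their sums were 3936 on C3H chow and 4216 on C57BL/6 chow. The 5 macrophage markers summed to 2529 on C3H chow and 2694 on C57BL/6 chow. The part of the adipocyte, wall and muscle signals in the thermogenic differences was not tested.

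The comparison of Western diet with chow in C3H uses the same C3H chow array, so it shares that side with the comparison above. All 6 genes were lower on Western diet, 4 of them at least 2-fold. Of 9624 genes, 8.13% were lower by that much and 8.32% were higher. The median log2 difference was -1.71, against -0.01 over all genes. Dio2 was 7.55-fold lower, Ppargc1a 6.88-fold, Elovl3 4.36-fold and Ucp1 2.47-fold. Fabp3 and Cidea had smaller differences, log2 -0.48 and -0.23.

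Further probe sets went the same way. The 2 other sets of Dio2 were 8.14-fold and at least 5.18-fold lower. The 4 other sets of Ppargc1a were 3.24-fold and at least 3.20-fold, 2.71-fold and 5.68-fold lower. In all, 10 of the 12 sets were at least 2-fold lower, and 0 were higher, where 8.4% of all probe sets were lower and 8.55% higher. For scale, probe sets of the same gene differed from each other in this comparison with a pooled SD of log2 0.579 over 2105 genes. The differences of Fabp3 and Cidea were smaller than this, and those of Dio2, Ppargc1a, Elovl3 and Ucp1 were larger. This spread is between probe sets on the same 2 arrays. It holds no variation between arrays or animals, so it cannot show whether a difference exceeds that variation.

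The size of the diet difference in C3H varied among the members. Dio2, Ppargc1a and Elovl3 had log2 differences of -2.92 to -2.12 with diet, Ucp1 lay between at -1.31, and Cidea and Fabp3 were close to the general adipocyte list, whose median was -0.44 (0 of 9 at least 2-fold lower, all 9 below 0). Cox7a1 and Cox8b, cytochrome oxidase subunits typical of brown fat and picked after their values were seen, had log2 differences of -0.24 and -0.21. The list they come from, genes that supply and burn fuel, had a median of -0.36. In it 16 of 18 measured were below 0, down to -1.07 for Slc27a2. The adipokine Adipoq, picked in the same way, had -0.05. That was the smallest difference of the 9 general adipocyte genes, which reached -0.95 for the representative set of Dgat2. On the same arrays smooth muscle markers had a median of 0.50, fibroblast markers of 0.98 and macrophage markers of 0.49, and their part in the thermogenic differences was not tested.

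**Figure D3:**
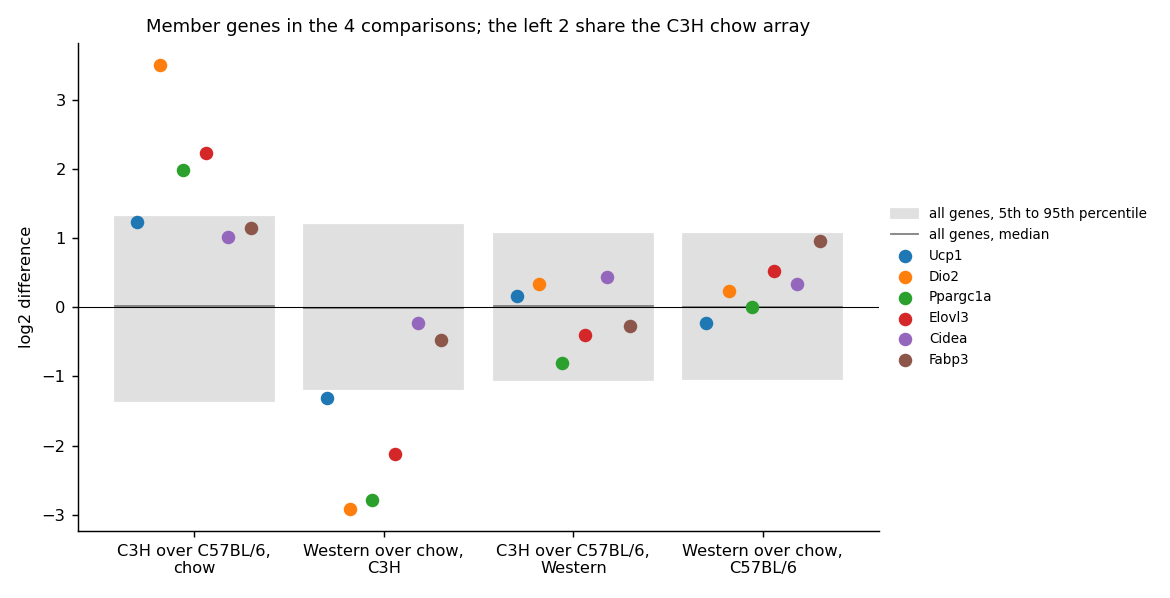
Log2 differences of the 6 measured genes (points) in the 4 comparisons, with the 5th to 95th percentile of all genes (grey) and their median (line). In the 2 comparisons at the left, which share the C3H chow array, Dio2, Ppargc1a and Elovl3 lie outside the grey band, and so does Ucp1 for diet in C3H. In the 2 at the right, which do not use it, all 6 genes lie inside.

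Without the C3H chow array, the representative sets differed by under 2-fold. Between C3H and C57BL/6 on Western diet none was at least 2-fold higher or lower (5.82% of 9438 genes were higher and 5.67% lower), and the median log2 difference was -0.06, against 0.01 over all genes. By probe set, 0 of 10 measured were called (6.04% of all probe sets were higher and 5.98% lower). Of these 10, 7 were lower in C3H (median log2 -0.28), as were 49.4% of all probe sets by any amount. The Ppargc1a sets with 4.11 and 3.86 on C3H Western were under the floor there. They had 149.9 and 134.9 on C57BL/6 Western, at least 1.79-fold and 1.61-fold lower in C3H, so a 2-fold difference cannot be judged for them. Cidea had the largest difference upward (1.35-fold higher), then Dio2 (1.27-fold higher) and Ucp1 (1.11-fold higher). Fabp3, Elovl3 and Ppargc1a were 1.22-fold, 1.33-fold and 1.75-fold lower in C3H. General adipocyte genes had a median of -0.14 in this comparison, and the 12 heart muscle markers summed to 948.3 on C3H Western and 16428 on C57BL/6 Western.

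With Western diet in C57BL/6 none of the 6 representative sets was at least 2-fold higher or lower (5.73% of 9461 genes were higher and 5.62% lower), with a median log2 difference of 0.29 against 0.00 over all genes. Fabp3 was 1.94-fold higher on Western diet, Elovl3 1.43-fold, Cidea 1.27-fold and Dio2 1.18-fold. Ppargc1a had a log2 difference of 0.00 and Ucp1 was 1.17-fold lower. The Dio2 set that was under the floor on chow was at least 3.19-fold higher on Western diet, against the 1.18-fold of the representative set, so the Dio2 sets disagree in size here. It was the 1 of 11 measured member sets at least 2-fold higher, and 0 were lower, where 5.84% of all probe sets were higher and 5.85% lower. General adipocyte genes had a median of 0.50 (9 of 9 above 0), and the 12 heart muscle markers summed to 16428 on Western diet and 21768 on chow.

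A single additive fit with terms for strain and diet was run over 14915 probe sets in limma. Its only residual is the difference between the diet responses of the strains, which has no replicate. None of the 11 member probe sets that entered passed an adjusted p of 0.05 for strain, where 0.382% of all probe sets did. The lowest adjusted p was 0.192 for Dio2 (log2 1.92 between strains, C3H minus C57BL/6, with both C3H arrays higher), and 2 of the 11 sets, both of Dio2, had an unadjusted p under 0.05. The 5 sets of Ppargc1a disagreed in this term, from log2 -2.19 to 0.59, since the fit takes signals under the floor as they are. For diet, none of the 11 passed and neither did any other probe set (0.0%, with 367 of 14915 at an unadjusted p under 0.05), with an adjusted p of 0.9996 for each member set and 3 of 11 at an unadjusted p under 0.05, 1 of Dio2 and 2 of Ppargc1a.

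Of 13 listed genes of beta-adrenergic and cAMP signalling, 9 were on the array. By representative sets, 0 of 9 were at least 2-fold higher or lower in any of the 4 comparisons. Of all genes, 5.62% to 10.5% passed in each direction of a comparison. Adcy3, an adenylyl cyclase, was 1.56-fold higher in C3H than in C57BL/6 on chow. In C3H it was 1.74-fold lower with Western diet. Another Adcy3 set was under the floor on both C3H arrays, with 32.7 on chow and 27.5 on Western diet. It had 302.0 on C57BL/6 chow and 268.3 on C57BL/6 Western. The remaining sets were higher on C3H chow than on C57BL/6 chow (321.9 against 269.3 and 170.5 against 92.4). The Adcy3 sets thus disagree on the direction of the strain difference. Prkar1a, a regulatory subunit of protein kinase A, was 1.75-fold lower in C3H than in C57BL/6 on chow. In C3H it was 1.67-fold higher with Western diet. The second Prkar1a set had 1168 on C3H chow and 863.8 on C57BL/6 chow, so its sets disagree on the direction of the strain difference. With 1487 on C3H Western, that set was also higher with Western diet in C3H. By representative sets, the largest difference in the list was that of Prkaca, a catalytic subunit of protein kinase A. Prkaca had 825.2 on C3H Western and 423.9 on C57BL/6 Western (1.95-fold higher), in a comparison where no member reached 2-fold. Creb1, a transcription factor that binds the cAMP response element, was 1.76-fold lower with Western diet in C57BL/6 and 1.69-fold lower in C3H.

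Among 22 transcription regulators of brown fat, 20 were on the array. In C3H against C57BL/6 on chow, 7 of 18 measured passed 2-fold upward and 0 downward, with a median log2 difference of 0.52. Irf4, an interferon regulatory factor known in mice to work with PGC-1 alpha in the response of brown fat to cold, had 1218 on C3H chow and 135.6 on C57BL/6 chow (8.98-fold higher). Ppara, the fatty acid receptor, was 4.71-fold higher, and Ppargc1b, the close relative of Ppargc1a, 4.02-fold. The second probe set of Irf4 had 177.2 on C3H chow and 136.9 on C57BL/6 chow, so its sets disagree in size.

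With Western diet in C3H, 3 of 19 measured regulators were at least 2-fold lower and 0 higher, with a median of -0.17. They were Irf4 (93.5 on Western diet and 1218 on chow, 13.0-fold lower), Cebpb, a factor of adipocyte differentiation (2.95-fold lower), and Ppargc1b (2.88-fold lower). The second Cebpb set had 513.8 on C3H Western and 935.0 on C3H chow, under 2-fold. The second Irf4 set had 65.6, under the floor, on C3H Western and 177.2 on C3H chow. The sets of each of these genes were thus lower with Western diet but disagree in size. Ppara was 1.19-fold lower in this comparison, while in C57BL/6 it was 4.27-fold higher on Western diet than on chow. Pparg, the master regulator of fat cells, was 1.90-fold lower in C3H than in C57BL/6 on Western diet, and Esrra, an orphan receptor that acts with PGC-1 alpha, was 3.03-fold higher.

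Genes that supply and burn fuel were mostly higher in C3H on chow, as the members were. Of 19 measured, 7 passed 2-fold upward and 1 downward in the strain comparison on chow (median 0.70). Plin5, which ties lipid droplets to mitochondria, was 4.17-fold higher and Gpd2, the mitochondrial glycerol phosphate dehydrogenase, 2.50-fold. Ckmt2, the mitochondrial creatine kinase of striated muscle, was at least 6.59-fold lower. With Western diet in C3H, 1 of 18 was at least 2-fold lower, Slc27a2, a fatty acid transporter (2.11-fold), and the median was -0.36. In C57BL/6, 19 of 19 were above 0 with Western diet (median 0.56), 2 at least 2-fold, Plin5 (3.30-fold) and Slc27a2 (2.27-fold).

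**Figure D4:**
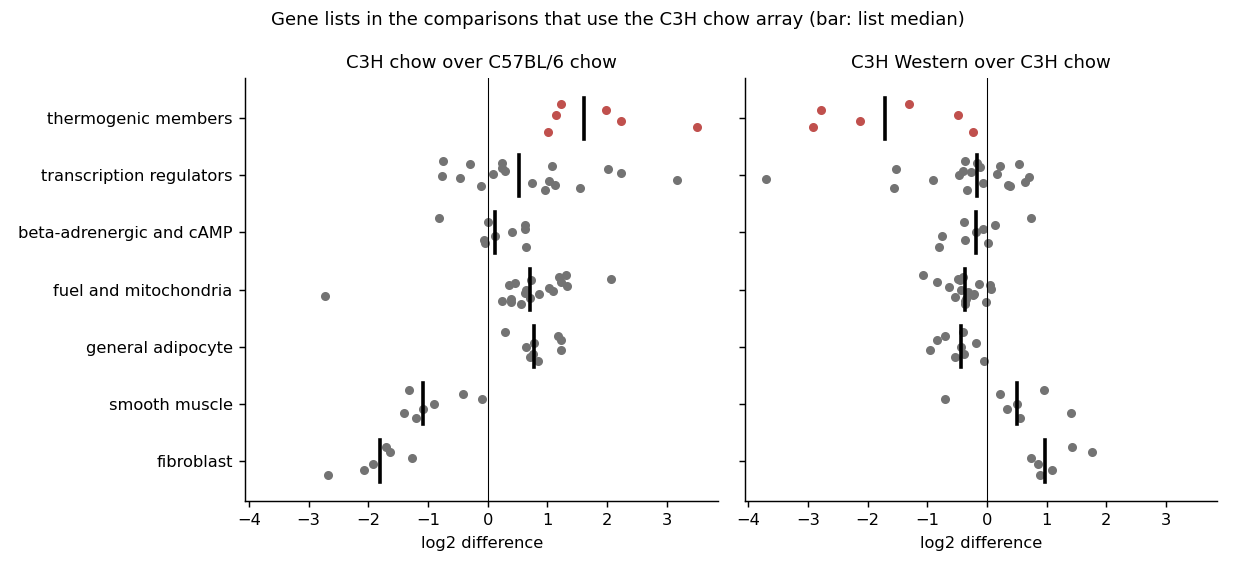
Log2 differences of single genes (points) and list medians (bars) for C3H chow over C57BL/6 chow (left) and C3H Western over C3H chow (right). The thermogenic genes have medians of 1.61 and -1.71, beyond the general adipocyte genes at 0.78 and -0.44, while fibroblast markers lie at -1.81 and 0.98.

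The genes whose 4 signals ran most like each member were found by the root mean square difference of log2 values centred on their mean, among 5646 genes above the floor on all arrays. Nearest to Dio2 were Irf4 (0.41), Elovl3 (0.59) and Noct (0.59), so 1 of its 3 nearest genes was another member. Nearest to Elovl3 were Haus7 (0.08), Gpat4, an enzyme of glycerolipid synthesis (0.15), and Dcbld1 (0.20). Gpat4 (0.27) and Dcbld1 (0.26) were also among the 3 nearest to Ppargc1a, with Slc9a3r2 (0.25). Cidea lay nearest to Sdhaf1, an assembly factor of mitochondrial complex II (0.03), and Fabp3 to Atp5md, a subunit of ATP synthase (0.03), and to Etfdh, which passes electrons from fatty acid oxidation to the respiratory chain (0.06). Ucp1 lay nearest to Xist, Slc52a3 and Clmp (0.06 each). With 4 arrays, these likenesses are descriptions only.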

How the data were processed

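Aortic total RNA (8 ug) was labelled with biotin and hybridized to 1-colour Affymetrix arrays, per the labels' protocols. The deposited values are linear intensities that share 1 trimmed mean per array (250.11 to 250.12, trimming 2% at each end). Neither labels nor headers name the software or background step. The members and lists were chosen with earlier results of these data known.

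From these, 64 control probe sets were left out and log2 values were quantile normalized (limma 3.58.1, R 4.3.3). Signals at or under the 40th percentile (83.6) were raised to it, and a difference was counted at 2-fold where the brighter array was above it, without a test. Gene names came from the platform annotation (20380 probe sets name 1 gene, 691 several, 1555 are unnamed here). Where a gene has several probe sets, the one brightest on average (log2) stands for it.

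The additive limma fit (strain and diet, mean trend, Benjamini-Hochberg) took those probe sets that exceeded the floor on 2 or more arrays. It rests mostly on a variance shared between probe sets (prior of 17.3 degrees of freedom against 1 residual), and the spread it measures may be technical. With 2 arrays a side, the smallest two-sided exact p is 0.333, so no such test was used. All member probe sets are named. Genes named from other lists were drawn from the 3 with the largest difference in a comparison, but not all of these are named. Some genes outside them are named too, such as Cox7a1, Cox8b and Adipoq. Genes near in pattern were drawn from the 3 nearest to each member. Promoters came from RefSeq (GRCm38.p6). Alternatives were other normalizations, floors, thresholds, the mean of all probe sets, and limma without trend, without filter or with 1 probe set per gene. Other steps ran in Python 3.11.15 (pandas 2.3.3, numpy 2.4.6, matplotlib 3.10.9, scipy 1.17.1).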

Additional observations from a re-analysis of the deposited data

Results flagged for a closer look

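The Western diet response differed in sign between the strains for 5 of the 6 measured genes, with C57BL/6 at or above 0 and C3H below it, and the difference was not tested, because that term would use up the last of the 4 arrays. Over all genes measured in both strains, 26.5% had that pattern, lower in C3H and higher in C57BL/6. Opposite signs in either direction were found for 53.0% of these genes. Of the 11 member probe sets measured in both, 7 had opposite signs, where 53.1% of all probe sets did. The other 4 had the same sign, namely 3 of the 5 of Ppargc1a and that of Ucp1. The C3H response minus the C57BL/6 response was log2 -3.15 for Dio2, -2.79 for Ppargc1a, -2.64 for Elovl3, -1.43 for Fabp3 and -0.57 for Cidea. The C57BL/6 response of Ppargc1a was 0.00, so its sign there carries nothing. Ucp1 was lower with Western diet in both strains, and its responses differed by -1.08. Every C3H response is taken against the C3H chow array, which stood apart in hybridization controls and actin ratio.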

How the results depend on the processing

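Of 168 values of single members under 7 alternatives (cyclic loess, the deposited values, equal array medians, a floor at the 60th or the 25th percentile or none, and the mean of all probe sets), 166 lay within the spread between probe sets of a gene, and 0 called values changed sign. The 2 that moved more came with the mean of all probe sets in C3H against C57BL/6 on chow, log2 4.14 for Dio2 and 1.29 for Ppargc1a. The median over the members stayed within that spread in each of the 4 comparisons. Many of the 168 values could not move, so their agreement says little. All 6 representative sets were above the floor on all arrays, so the lower floor and no floor returned the main values. The floor at the 60th percentile changed Ppargc1a alone. The mean of all probe sets cannot change a gene with 1 set. At 3-fold, 3 of the 6 genes were higher in C3H on chow (2.45% of all genes) and 3 were lower with Western diet in C3H (1.45%). At 1.5-fold, 1 was lower in C3H on Western diet (16.3% of all genes) and 1 was higher with Western diet in C57BL/6 (16.8%), and with equal array medians 1 passed 2-fold there (6.8%), in place of 0. In limma without the filter on dim probe sets, 2 member probe sets, both of Dio2, passed for strain. The lowest adjusted p was 5.04e-05 (0.185 to 0.911 under the other settings). The prior of that fit had infinite degrees of freedom (17.3 in the main fit), so its p-values give no weight to a probe set's own residual. The member set that entered only without the filter, of Dio2, was above the floor on C3H chow alone. Over all probe sets limma called 57 for strain, 0 without the mean trend, 119 without the filter and 27 with 1 probe set per gene, and for diet 5 without the filter against 0. Leaving out an array was not possible, since each group has 1 and the additive fit has 1 residual degree of freedom. No paired analysis was possible because each group has 1 array. Without scanner files, signal over background could not be judged, and the floor stands in for it.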

Other observations

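Relatives of the members were measured as well. Of 23 listed paralogues 19 were on the array, and in C3H against C57BL/6 on chow 4 of 10 measured were at least 2-fold higher and 0 lower, with a median log2 difference of 0.86. Ucp3, the uncoupling protein of muscle and brown fat, had 432.1 on C3H chow and 158.7 on C57BL/6 chow (2.72-fold higher), and Elovl6, an elongase of long chain fatty acids, 2.41-fold. Within C3H, 1 of 11 measured on Western diet and chow was at least 2-fold lower, Ppargc1b, while Elovl6 was 1.66-fold and Ucp3 1.61-fold lower. Elovl5, an elongase of polyunsaturated fatty acids, had 1827 on C3H Western and 848.3 on C57BL/6 Western. Its second set had 980.1 and 786.0 on these arrays, so the Elovl5 sets disagree in size.

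Of 7 listed genes of thyroid hormone handling beside Dio2, 4 were on the array. None of the 4 was at least 2-fold higher in any of the 4 comparisons, and 1 was at least 2-fold lower in 1 of them, Thrb, a thyroid hormone receptor, with Western diet in C57BL/6. The representative probe set of Thrsp, a thyroid hormone response gene of fat, had 7053 on C3H Western, 7855 on C3H chow, 6872 on C57BL/6 Western and 7855 on C57BL/6 chow. Its other set had 5850 on C3H Western, 5185 on C3H chow, 3452 on C57BL/6 Western and 3083 on C57BL/6 chow, so the Thrsp sets disagree on the strain difference.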
